A study of Mus musculus with 4 samples.

Results

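The effect of obesity on gastrocnemius muscle that keeps its glucocorticoid receptor (GR, the product of Nr3c1) was examined by setting the ob/ob GRf/f library against the lean GRf/f library, 2 of the 4 RNA-seq libraries of the series. All genes with at least 10 expected counts in both libraries were measured, which left 12846 of 22252 gene names. Every mouse was a C57BL/6J male of 7 weeks and was homozygous for the floxed Nr3c1 allele (GR Flox+/+). GRf/f mice carried no Cre (Cre-/-), so that GR stayed intact in both groups. Lean mice were Lep+/+. The ob/ob mice were Lepob/ob and make no functional leptin, the adipocyte hormone that restrains feeding, so that obesity and the lack of leptin cannot be told apart here. RNA of 3 mice was pooled for each library, and the spread between mice could not be measured. A difference was therefore called by its size, at least 1.5-fold, and no test was possible. The libraries of lean and ob/ob GR-mKO mice, in which Cre driven by the Acta1 promoter deletes the floxed exon of Nr3c1 in myofibres, are given beside the GRf/f pair where they help. Both pairs consist of separate libraries, and no difference between the pairs was tested.

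Skeletal muscle is built of myofibres that differ in their myosin, from slow fibres to the fast IIa, IIx and IIb fibres, and gastrocnemius is mostly fast. Between the fibres lie capillaries, nerves, resident macrophages and fibroblast-like progenitors, which deposit the collagen matrix that carries force to the tendon. Insulin, growth hormone, thyroid hormone and glucocorticoids all act on the fibres. Pools of whole muscle hold RNA of all these cells, and a lower value may mean fewer cells of a type or less RNA per cell, which bulk samples cannot tell apart.

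The libraries held 20757146 (lean GRf/f) and 20959781 (ob/ob GRf/f) expected counts. The files list each gene name once, with 1 transcript, so that any value here, and its ratio, may cover that entry and not the whole gene. Levels are given as CPM, counts per 1e6 of the library total, scaled with TMM, the trimmed mean of M values, which sets the median gene near no difference. Ratios carry an exact 95% interval that covers counting error only, taken as if the reads were independent molecules. Reads without molecular identifiers are not, and the counts are estimates, so that the interval may be too narrow. Of the 12846 genes, 1151 (8.96%) were at least 1.5-fold higher and 1225 (9.54%) at least 1.5-fold lower in ob/ob GRf/f muscle. The lower and upper quartiles of the log2 change were -0.26 and 0.25. Scaling by library totals alone shifted every log2 change by -0.11 and gave 792 (6.17%) higher and 1714 (13.3%) lower. In the GR-mKO pair, 1370 of 12807 genes (10.7%) were higher and 1687 (13.2%) lower. Over the 12412 genes measured in both pairs, Pearson's r of the log2 changes was 0.468, across genes, which are not independent replicates. Fast muscle transcripts were abundant in both libraries, with Myh4, the IIb myosin, at 22465 CPM in lean GRf/f and 30227 CPM (ob/ob) in GRf/f muscle.

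**Figure D1:**
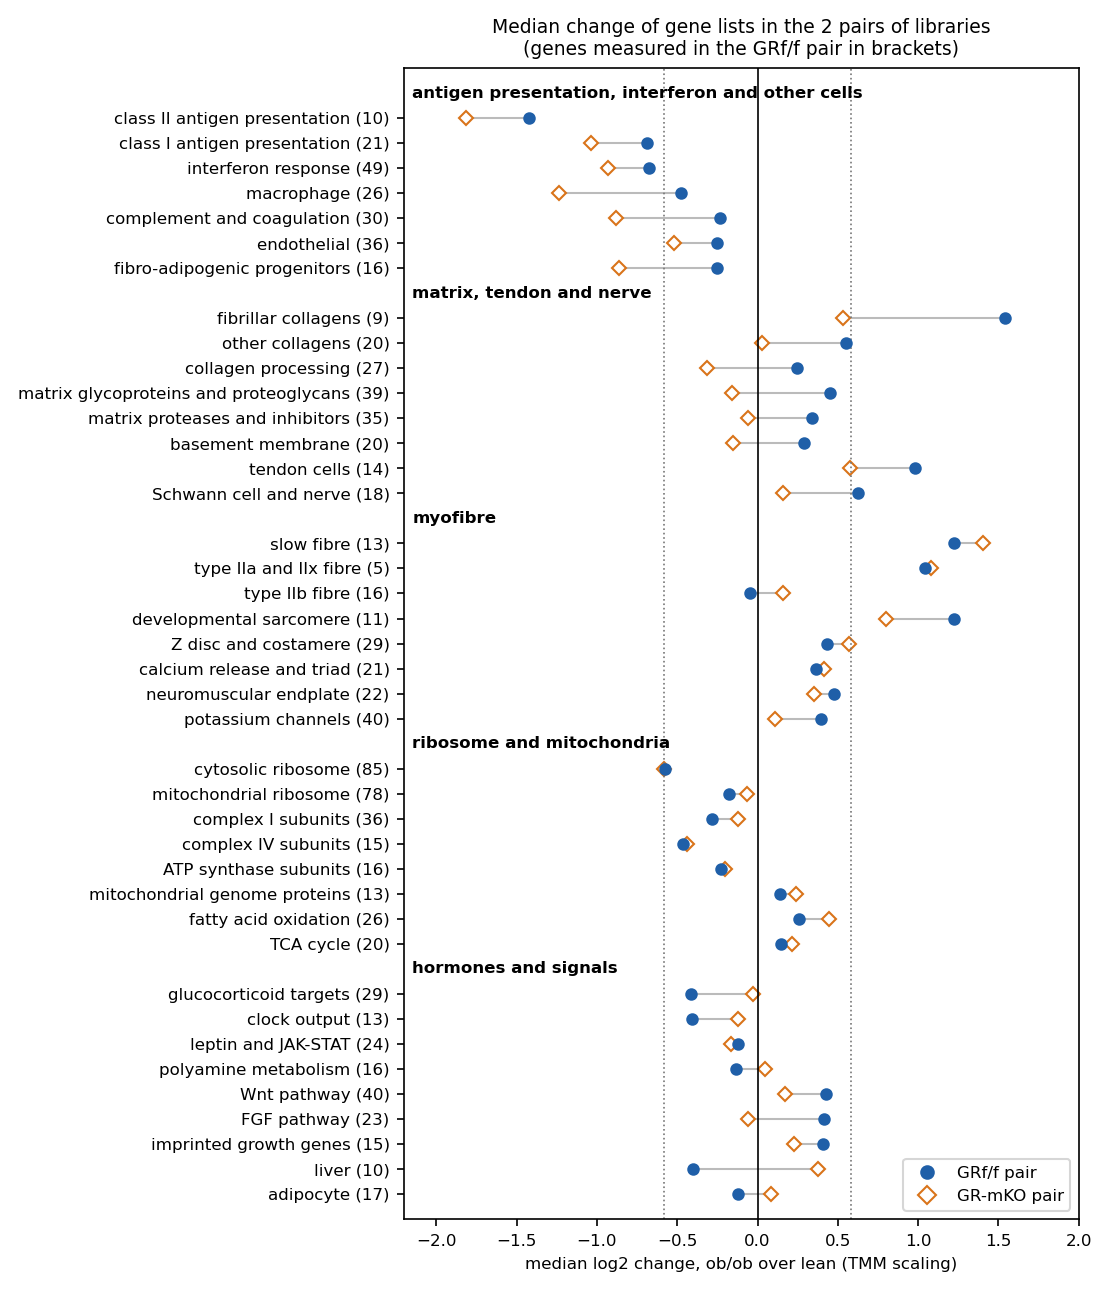
Median log2 change, ob/ob over lean, of 40 gene lists in the GRf/f pair (filled circles) and the GR-mKO pair (open diamonds), with the number of genes measured in the GRf/f pair in brackets and dotted lines at 1.5-fold. Antigen presentation had the lowest median in the GRf/f pair (-1.43 for class II) and the fibrillar collagens the highest (1.54).

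Of the lists described, class II antigen presentation had the lowest median, and class I antigen presentation and the interferon response were among the next lowest. Class II molecules of the major histocompatibility complex display peptides from outside the cell on macrophages, dendritic cells and B cells, and class I molecules display peptides from within on nearly every cell. Both are switched on by interferon. Promoters of class II and many class I genes carry a Y box, which nuclear factor Y binds, and promoters of interferon-stimulated genes carry paired GAAA half-sites, bound by interferon regulatory factors. The 200 bases before the start site are shown for 6 genes of these lists, 5′ to 3′ on the gene's strand, with matches to GATTGG or GAAANNGAAA on either strand in capitals. They are RefSeq sequences on GRCm38.p6 from chr17:34287824-34288023 (- strand), chr17:34305667-34305866 (+), chr2:122147487-122147686 (+), chr19:34640689-34640888 (+), chr19:34583329-34583528 (+) and chr4:156200819-156201018 (-).
H2-Aa: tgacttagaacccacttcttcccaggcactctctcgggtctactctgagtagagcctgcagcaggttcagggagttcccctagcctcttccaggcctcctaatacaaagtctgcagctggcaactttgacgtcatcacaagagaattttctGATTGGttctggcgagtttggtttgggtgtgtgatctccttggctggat
H2-Eb1: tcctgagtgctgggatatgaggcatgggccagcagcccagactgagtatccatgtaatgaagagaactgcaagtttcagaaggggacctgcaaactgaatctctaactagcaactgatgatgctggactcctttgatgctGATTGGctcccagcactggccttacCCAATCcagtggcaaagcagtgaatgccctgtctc
B2m: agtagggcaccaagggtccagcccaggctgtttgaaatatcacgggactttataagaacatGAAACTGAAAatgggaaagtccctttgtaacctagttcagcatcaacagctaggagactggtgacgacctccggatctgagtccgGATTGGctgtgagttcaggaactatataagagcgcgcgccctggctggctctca
Ifit1: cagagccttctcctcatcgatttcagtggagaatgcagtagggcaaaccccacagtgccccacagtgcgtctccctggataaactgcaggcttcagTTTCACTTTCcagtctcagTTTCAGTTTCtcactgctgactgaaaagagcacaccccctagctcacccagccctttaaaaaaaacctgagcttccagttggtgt
Ifit3: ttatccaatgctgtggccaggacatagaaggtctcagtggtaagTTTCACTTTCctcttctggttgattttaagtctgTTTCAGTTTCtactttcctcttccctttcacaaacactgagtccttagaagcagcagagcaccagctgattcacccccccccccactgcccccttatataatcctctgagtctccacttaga
Isg15: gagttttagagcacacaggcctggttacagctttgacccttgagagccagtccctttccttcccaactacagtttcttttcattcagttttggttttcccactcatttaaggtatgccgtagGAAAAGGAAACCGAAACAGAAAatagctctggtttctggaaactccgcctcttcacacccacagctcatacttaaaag
In the 250 bases before the start site, GATTGG was found in 16.6% of all 27025 genes with a promoter window and GAAANNGAAA in 3.46%, and matches of the second motif can overlap one another, as the 3 of Isg15 do. Of the measured genes with a window, GATTGG was present in 5 of 7 class II, 10 of 17 class I and 4 of 37 interferon genes. GAAANNGAAA was present in 1, 3 and 18 of them. The capitals show the contrast, with a Y box in the promoters of H2-Aa and H2-Eb1, paired half-sites in those of Ifit1, Ifit3 and Isg15, and both in that of B2m, the light chain of class I. A match is a string of letters and does not show that a factor binds there.

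Class II genes were lower in ob/ob GRf/f muscle with no exception. Of 10 genes measured, 9 were at least 1.5-fold lower, against 9.54% of all genes, and the median log2 change was -1.43. H2-Aa (chr17:34282744-34287823, - strand), the alpha chain of the I-A molecule, stood at 81.9 CPM in lean GRf/f and 20.05 CPM (ob/ob) in GRf/f muscle, 4.09-fold lower (3.67 to 4.57). Its partner H2-Ab1 stood at 72.4 and 18.7 CPM, and H2-Eb1, the beta chain of I-E, at 56.5 and 15.8 CPM. The invariant chain Cd74, which escorts class II molecules, stood at 189 and 53.7 CPM, 3.52-fold lower (3.29 to 3.77). The peptide loaders H2-DMa, H2-DMb1 and H2-DMb2 were 2.25-, 2.53- and 2.86-fold lower. The gene with the smallest difference was Ctss, a protease that trims the invariant chain, at 21.5 and 16.7 CPM. The GR-mKO pair showed H2-Aa at 114 CPM (lean) and 21.6 CPM in ob/ob muscle. All 10 class II genes measured there were at least 1.5-fold lower, against 13.2% of all genes. Ciita, the master activator of class II genes, was under the count minimum in ob/ob GRf/f muscle, at 1.94 CPM (lean) and 0.497 CPM in ob/ob muscle, and no ratio was taken.

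Class I genes were lower in 13 of 21 (61.9%, against 9.54% of all genes) and higher in none, with a median of -0.69. H2-D1 stood at 249 CPM (lean) and 147 CPM (ob/ob) in GRf/f muscle and H2-K1 at 116 and 68.1 CPM, both 1.70-fold lower. B2m stood at 240 and 152 CPM. The immunoproteasome subunits Psmb8 and Psmb9, which cut peptides for class I, were 2.15-fold (1.56 to 2.97) and 2.24-fold (1.51 to 3.43) lower. The peptide pump subunit Tap1 stood at 8.32 and 4.92 CPM. The loading factor and the trimming enzyme were near no difference, with Tapbp at 49.1 and 45.3 CPM and Erap1 at 31.3 and 32.9 CPM.

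Interferon-stimulated genes were lower in 27 of 49 (55.1%, against 9.54% of all genes) and higher in 1, and 47 of 49 had a log2 change below 0. Ifi27l2a stood at 42.5 CPM (lean) and 7.44 CPM (ob/ob) in GRf/f muscle, 5.72-fold lower (4.79 to 6.82). The antiviral genes Ifit3 (8.89 and 2.83 CPM), Ifit1 (4.23 and 1.44 CPM) and Isg15 (2.36 and 0.548 CPM) were 3.14-, 2.94- and 4.30-fold lower. The interferon-gamma-induced GTPases Iigp1 (13.5 and 4.56 CPM) and Gbp7 (19.8 and 9.14 CPM) were 2.95- and 2.17-fold lower, and Bst2, which tethers viruses to the membrane, 2.003-fold. Among transcription factors of the interferon response, Stat2 stood at 10.4 and 7.95 CPM and Irf7 at 4.87 and 3.69 CPM, both short of 1.5-fold. Irf9 was the only member past 1.5-fold in the other direction, at 2.98 and 7.81 CPM, 2.62-fold higher (1.95 to 3.57). With GR deleted in myofibres, Irf9 stood at 6.29 and 3.38 CPM, and 34 of 48 interferon genes were lower there, against 13.2% of all genes.

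Macrophage and lymphocyte markers were also lower more often than higher. Of 26 macrophage genes, 9 were lower (34.6%, against 9.54% of all genes) and none higher, and their summed level was 912.5 CPM (lean) and 684.4 CPM (ob/ob) in GRf/f muscle. The phagocyte lysozyme Lyz2 (199 and 125 CPM), the complement subunit C1qa (72.8 and 43.9 CPM) and the scavenger receptor Cd163 (25.3 and 14.8 CPM) were 1.595-, 1.66- and 1.71-fold lower. The integrin Itgam (10.4 and 2.06 CPM) and the monocyte receptor Ccr2 (6.06 and 2.75 CPM) were 5.03- and 2.20-fold lower. Defining markers of resident macrophages differed little, with Csf1r at 72.5 and 62.95 CPM, Mrc1 at 48.9 and 43.9 CPM and Cd68 at 14.2 and 13.9 CPM. Cx3cr1 was listed at 0 in the lean library and Ly6c2 in the ob/ob library. In the GR-mKO pair 24 of 26 macrophage genes were lower, where all genes had 13.2%, with a median of -1.23 against -0.47, and the summed level was 1102 and 504.6 CPM. Lymphocyte genes were scarce, with 4 of 25 measured. In the GR-mKO pair 2 of 4 were lower, against 13.2% of all genes, and the list summed to 98.35 and 123.7 CPM. In the GRf/f pair 3 of 4 were lower (75%, against 9.54% of all genes), and the list summed to 74.38 and 33.79 CPM. Among the 3 was Ptprc, the common leukocyte antigen, which is not particular to lymphocytes, at 7.399 and 4.56 CPM. Of 36 endothelial genes 4 were lower and 1 higher, a lower share of 11.1% that lies near the 9.54% of all genes, and 10 were lower under library totals, where all genes had 13.3%, with Pecam1 at 63.9 and 54.2 CPM and the water channel Aqp1 at 888 and 583 CPM. Erythroid genes, which mark red blood cells, were lower in 6 of 11 (54.5%, against 9.54% of all genes) and higher in 1. Their median was -0.64, and their summed level was 2524 CPM (lean) and 1567 CPM (ob/ob) in GRf/f muscle. The summed level was 2322 and 1382 CPM in the GR-mKO pair, but the median there was 0.02. In that pair 5 of 11 were lower and 1 higher, against 13.2% and 10.7% of all genes. In the GRf/f pair the beta-globin Hbb-bs stood at 777 and 352 CPM. The alpha-globin Hba-a1, which has a near-identical copy, stood at 572 and 281 CPM there and the haem synthesis enzyme Alas2 at 18.4 and 5.56 CPM. The part of blood content and of cell numbers in the values for antigen presentation and interferon was not tested.

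Complement and coagulation genes were lower more often than higher. C3 (221 and 107 CPM), C7 (27.3 and 11.7 CPM) and properdin, Cfp (21.4 and 11.2 CPM), were 2.07-, 2.33- and 1.91-fold lower, and 8 of 30 genes of the list were lower (26.7%, against 9.54% of all genes) and 1 higher. Under library totals 12 of 30 were lower, where all genes had 13.3%. The largest difference of all measured genes belonged to Cfd (chr10:79890853-79892655, + strand), the adipocyte protease adipsin that activates the alternative complement pathway. It stood at 257 and 15.03 CPM, 17.1-fold lower (15.3 to 19.3), and at 134 and 9.55 CPM in the GR-mKO pair. Chemokines and cytokines were lower in 11 of 26 and higher in 1. The eosinophil attractants Ccl11 (91.2 and 39.8 CPM) and Ccl24 (8.66 and 3.22 CPM) were 2.29- and 2.69-fold lower, Cxcl14 stood at 223 and 113 CPM, and Ccl8 was the higher one, at 1.52 and 2.79 CPM.

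**Figure D2:**
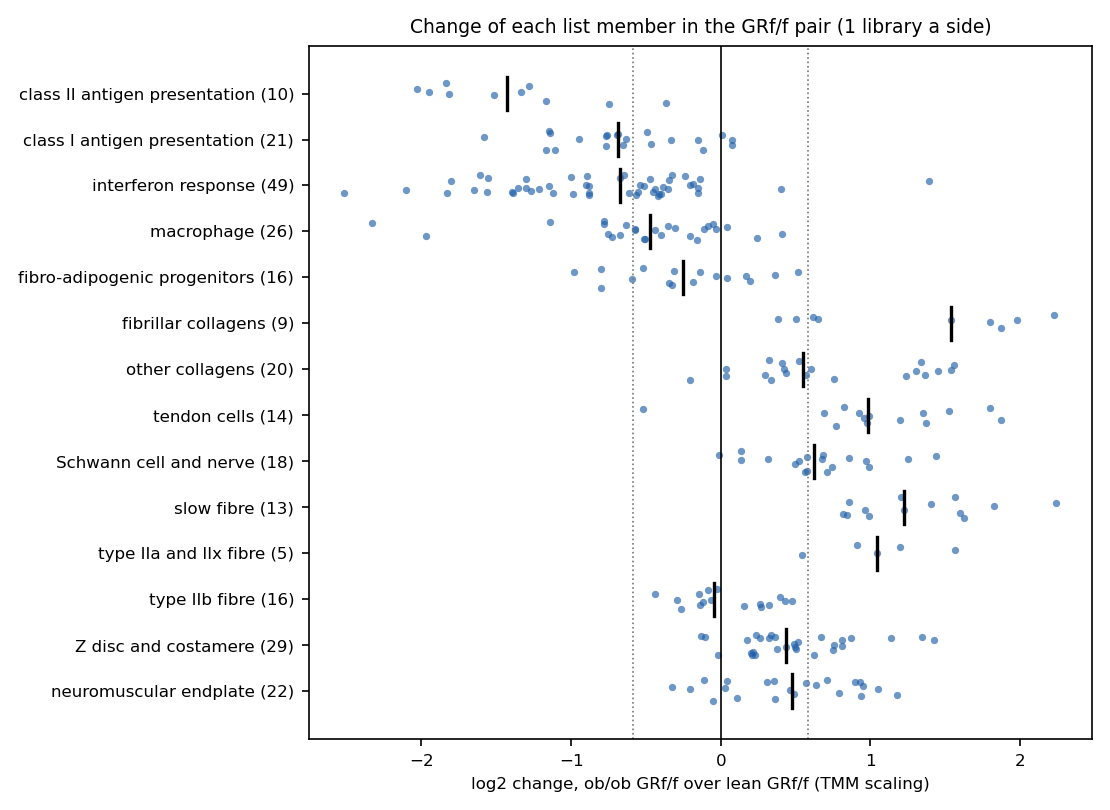
Log2 change of each measured member of 14 gene lists, ob/ob GRf/f over lean GRf/f, with 1 point a gene, a black bar at the list median and dotted lines at 1.5-fold. All 10 class II genes lie below 0 and all 13 slow fibre genes above 0, while the 16 type IIb genes lie between -0.44 and 0.48.

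Several groups of extracellular matrix genes were higher more often than lower. Fibrillar collagens, which assemble into the load-bearing fibres of muscle and tendon, were higher in 7 of 9 and lower in none, against 8.96% of all genes that were higher, with a median log2 change of 1.54. Under library totals 5 of 9 were higher, without Col5a1 and Col3a1, and the median was 1.43. It was 1.09 over the 8 genes with at least 50 counts in both libraries and 0.50 over the 3 with 1 coding transcript. Col1a1 (chr11:94936224-94953042, + strand), the main chain of type I collagen, stood at 1232 CPM (lean) and 4280 CPM (ob/ob) in GRf/f muscle, 3.47-fold higher (3.43 to 3.52). Col1a2, its partner, stood at 1223 and 3555 CPM, 2.91-fold higher. The chains that set the diameter of type I fibrils, Col5a1 (175 and 275 CPM) and Col5a2 (139 and 182 CPM), and the looser type III chain Col3a1 (1259 and 1931 CPM), were 1.57-, 1.31- and 1.53-fold higher. Chains best known from cartilage showed larger ratios at low levels, with Col2a1 at 1.40 and 6.56 CPM, Col11a1 at 10.5 and 38.5 CPM and Col11a2 at 10.1 and 39.8 CPM.

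Other collagens followed, with 9 of 20 higher (45%, against 8.96% of all genes) and none lower and a median of 0.55. Col12a1, a collagen that bridges fibrils, stood at 23.1 and 62.97 CPM, and the vessel-associated Col8a1 and Col8a2 at 14.8 and 38.0 and at 8.70 and 25.3 CPM. Col22a1, which marks the junction of fibre and tendon, stood at 26.4 and 65.3 CPM, 2.47-fold higher (2.24 to 2.73). The type VI chains around the fibres differed less, with Col6a1 at 345 and 463 CPM. Among GR-mKO libraries, Col1a1 stood at 1174 and 2441 CPM, Col3a1 at 1489 and 1104 CPM and Col6a1 at 395 and 312 CPM. There 4 of 9 fibrillar collagens were higher and none lower, and of 18 other collagens 5 were higher and 4 lower. Of all genes in that pair 10.7% were higher and 13.2% lower.

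Several genes that cross-link and furnish the matrix were also higher. Lox, the oxidase that cross-links collagen and elastin, stood at 32.0 CPM (lean) and 121 CPM (ob/ob) in GRf/f muscle, 3.77-fold higher (3.46 to 4.11), and its relative Loxl4 was 2.16-fold higher. The collagen chaperone Serpinh1 stood at 210 and 178 CPM, and the processing list as a whole had 4 of 27 higher (14.8%), none lower and a median of 0.25. Among matrix glycoproteins and proteoglycans 16 of 39 were higher (41%, against 8.96% of all genes) and 2 lower (5.13%, against 9.54%). Under library totals 14 were higher and 5 lower, where all genes had 6.17% and 13.3%. Elastin, Eln, stood at 53.1 and 184 CPM and periostin, Postn, which is made by activated fibroblasts, at 22.4 and 81.6 CPM, 3.47- and 3.64-fold higher. Tenascin C (Tnc, 11.3 and 27.8 CPM) and thrombospondin 1 (Thbs1, 26.9 and 81.3 CPM), both known to mark loaded or healing tissue, were 2.47- and 3.02-fold higher. Not every matrix gene was higher. Decorin, Dcn, stood at 1201 and 919 CPM, lumican, Lum, at 83.9 and 73.8 CPM, and osteomodulin, Omd, and Smoc2 were 1.95- and 1.51-fold lower.

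Among matrix proteases and their inhibitors 11 of 35 were higher (31.4%, against 8.96% of all genes) and 1 lower. Adamts8, a secreted metalloprotease, stood at 1.39 and 9.47 CPM, 6.79-fold higher (4.599 to 10.3), and Adamtsl4, a microfibril-binding relative, at 22.2 and 53.2 CPM. Mmp9, the gelatinase of leukocytes, was the single member lower past 1.5-fold, at 14.4 CPM (lean) and 3.66 CPM (ob/ob) in GRf/f muscle. The basement membrane list had 1 of 20 higher (5%, below the 8.96% of all genes) and none lower, with a median of 0.29.

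**Figure D3:**
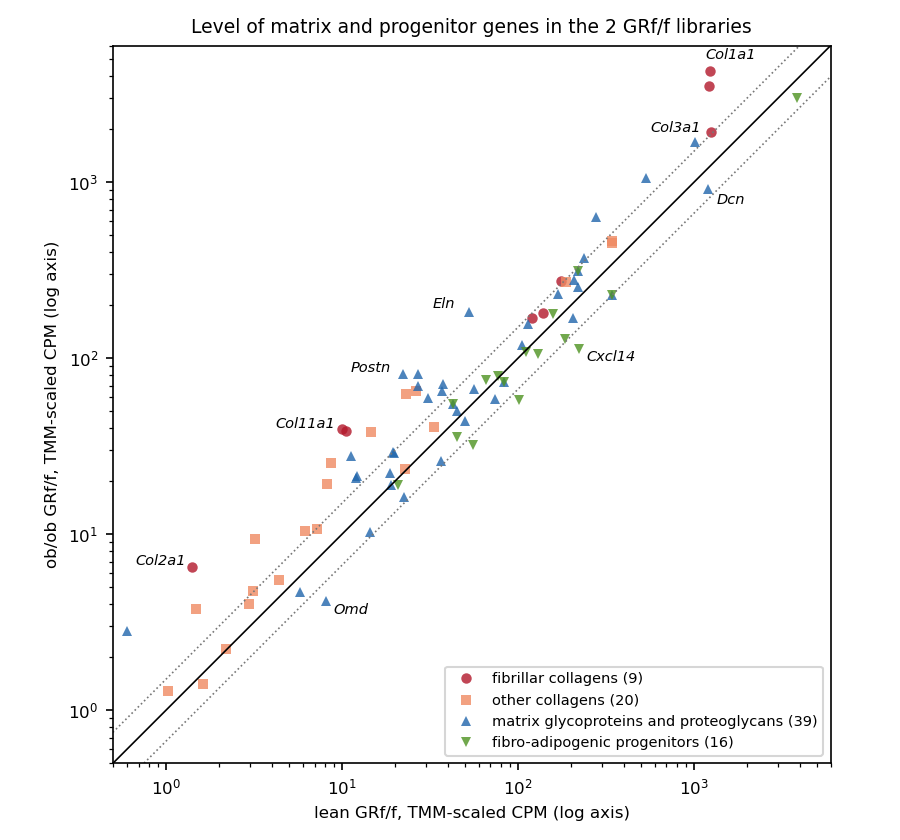
Level in lean GRf/f muscle (x axis) against ob/ob GRf/f muscle (y axis), both in TMM-scaled CPM on log axes, of fibrillar collagens, other collagens, matrix glycoproteins and proteoglycans, and fibro-adipogenic progenitor markers, with a solid line at no difference and dotted lines at 1.5-fold. Col1a1 lies at 1232 and 4280 CPM, above the upper dotted line, while Cxcl14, a progenitor marker, lies below the lower one.

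Markers of the cells that make matrix did not move as one. Tendon cell genes were higher in 13 of 14 (92.9%, against 8.96% of all genes) and lower in 1 of 14 by less than 1.5-fold. Their summed level was 2563 CPM (lean) and 6856 CPM (ob/ob) in GRf/f muscle. Col1a1, at the levels given above, makes up most of the ob/ob sum and of its rise over lean. The tendon transcription factor Scx stood at 9.64 and 18.7 CPM, tenomodulin, Tnmd, at 34.6 and 68.8 CPM, fibromodulin, Fmod, at 539 and 1058 CPM and Cilp2 at 45.2 and 117 CPM. These 4 genes were 1.94- to 2.58-fold higher. Markers of fibro-adipogenic progenitors, the main matrix-producing cells between fibres, were higher in none of 16 and lower in 4 (25%, against 9.54% of all genes). The summed level of these progenitor markers was 5709 and 4626 CPM. Pdgfra, the receptor that defines the progenitors, stood at 65.8 and 75.4 CPM, Cd34 at 131 and 105 CPM, and Clec3b and Ly6a were both 1.74-fold lower. None of the tendon or progenitor markers was listed at 0 in either library. In the GRf/f pair most tendon markers and no progenitor marker were at least 1.5-fold higher, while 5 of 16 progenitor markers had a log2 change above 0. The tendon list shares Col1a1 with the collagens, so that its movement is not independent of theirs, and no value without collagens was taken. In the GR-mKO pair 7 of 14 tendon genes were higher and 1 lower, and 13 of 16 progenitor genes were lower. Of all genes in that pair 10.7% were higher and 13.2% lower. Progenitor markers summed to 5603 and 3063 CPM there. The part of tendon in the collagen values was not tested.

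Schwann cell and nerve genes were higher in 9 of 18 (50%, against 8.96% of all genes) and lower in none, with a median of 0.63. Periaxin, Prx, which Schwann cells need to keep their myelin, stood at 11.5 and 22.9 CPM. The myelin genes Pmp22 and Mbp stood at 135 and 193 CPM and at 105 and 148 CPM. Peripherin, Prph, a neurofilament relative of motor and sensory axons, stood at 1.11 and 3.02 CPM, and Gfap and Nefl were listed at 0 in ob/ob GRf/f muscle. Of the same list, 3 of 18 genes were higher and 1 lower in the GR-mKO pair, where all genes had 10.7% higher and 13.2% lower.

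Within the myofibre, genes of the IIa and IIx fibres and of the slow fibre were higher while those of the IIb fibre were level. Of 5 IIa and IIx genes 4 were higher (80%, against 8.96% of all genes), with a median of 1.04. Myh2, the IIa myosin (chr11:67171027-67197517, + strand), stood at 638 CPM (lean) and 1462 CPM (ob/ob) in GRf/f muscle, 2.29-fold higher (2.25 to 2.34), and Myh1, the IIx myosin, at 872 and 1638 CPM. Mybpc1, the slow-type myosin-binding protein C, stood at 550 and 1133 CPM, and Fhl1, a LIM protein of oxidative fibres, at 597 and 1765 CPM. The IIa and IIx list thus does not measure these fibres apart from slow ones, and its median is the value of Mybpc1. All 13 slow fibre genes were higher, with a median of 1.23. None of 16 IIb genes passed 1.5-fold in either direction, and their median was -0.05 under TMM and -0.16 under library totals. Parvalbumin, Pvalb, the calcium buffer of fast fibres, stood at 11189 and 9136 CPM and the fast light chain Myl1 at 8696 and 6418 CPM. Myh4, the IIb myosin, had a log2 change of 0.43. Of the 16 IIb genes 7 were above 0 and 9 below, and their summed level was 128465 CPM (lean) and 141159 CPM (ob/ob) in GRf/f muscle. In the GR-mKO pair 5 of 5 IIa and IIx genes, 12 of 13 slow genes and 3 of 16 IIb genes were higher, against 10.7% of all genes. The other slow gene, Pln, was lower there at 4.11 and 2.22 CPM.

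Sarcomeric genes of the embryonic or stressed muscle were higher in 9 of 11 (81.8%, against 8.96% of all genes) and lower in 1. Ankrd1 (chr19:36111961-36120099, - strand), a stretch-responsive titin partner, stood at 3.48 CPM (lean) and 24.6 CPM (ob/ob) in GRf/f muscle, 7.05-fold higher (5.53 to 9.12). The embryonic and perinatal myosins Myh3 (1.024 and 7.06 CPM) and Myh8 (1.69 and 5.78 CPM) were 6.89- and 3.43-fold higher at low levels, and their sequences are close to those of the other myosins, so that reads may be shared. Csrp3, a Z disc mechanosensor, stood at 45.7 and 131 CPM, and Xirp1, which gathers at damaged fibre ends, at 157 and 437 CPM. Ankrd1 stood at 5.56 and 24.2 CPM in the GR-mKO pair, where Myh3 was listed at 0 in the ob/ob library.

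Giant and structural genes of the Z disc and costamere, which anchor the filaments to the membrane, were higher in 10 of 29 (34.5%, against 8.96% of all genes). None was lower, and 26 of 29 had a log2 change above 0. Titin, Ttn, stood at 1414 and 3792 CPM, 2.68-fold higher (2.65 to 2.72), and nebulin, Neb, at 1143 and 2003 CPM. Filamin C (Flnc, 378 and 961 CPM) and the alpha-actinin Actn2 (617 and 1356 CPM) were 2.54- and 2.20-fold higher. The small titin cap Tcap stood at 1763 and 1607 CPM. Calcium-release genes of the triad were above 0 in 19 of 21, with 2 past 1.5-fold higher (9.52%, near the 8.96% of all genes), the release channel Ryr1 at 1336 and 2284 CPM and the slow calsequestrin Casq2 at 29.9 and 68.7 CPM. Among calcium pump genes the slow pump Atp2a2 stood at 79.5 and 158 CPM and the fast pump Atp2a1 at 21749 and 30301 CPM. Myoregulin, Mrln, a micropeptide that restrains the pump, was the only member of its list that was lower, at 33.2 and 15.3 CPM, 2.17-fold (1.90 to 2.49).

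Of 35 heat shock genes 3 were higher and none lower, near the 8.96% of all genes that were higher, and the list median was -0.07. The 3 were small heat shock proteins of muscle. Hspb7 stood at 291 CPM (lean) and 1007 CPM (ob/ob) in GRf/f muscle, 3.46-fold higher (3.36 to 3.56), alpha-B crystallin, Cryab, at 402 and 635 CPM and Hspb6 at 805 and 1219 CPM. Under library totals Hspb7 alone was past 1.5-fold higher, with 0.546 for Cryab and 0.484 for Hspb6 on the log2 scale. On that scale 2 of the 35 genes were lower, where all genes had 6.17% higher and 13.3% lower. The constitutive chaperone Hspa8 stood at 1056 and 941 CPM.

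Genes of the neuromuscular endplate, where acetylcholine triggers contraction, were higher in 9 of 22 (40.9%, against 8.96% of all genes) and lower in none. The receptor subunit Chrna1 stood at 17.7 and 33.8 CPM, acetylcholinesterase, Ache, at 19.99 and 38.5 CPM, and its collagen anchor Colq at 4.99 and 11.3 CPM, 1.91- to 2.26-fold higher. The organiser kinase Musk stood at 14.1 and 11.3 CPM. Ncam1, which fibres re-express when they lose their nerve, stood at 4.58 and 10.7 CPM. Among myogenic factors 7 of 28 were higher (25%) and 2 lower (7.14%, near the 9.54% of all genes). The lower ones were Id1 (35.5 and 15.6 CPM) and Id3 (36.9 and 21.8 CPM), inhibitors of myogenic helix-loop-helix factors. Myod1 stood at 29.5 and 21.7 CPM, and Pax7, the satellite cell marker, at 4.57 and 10.02 CPM. Potassium channels were higher in 14 of 40 (35%, against 8.96% of all genes) and lower in 3 (7.5%, near the 9.54% of all genes). The fast-firing channels Kcnc1 (60.1 and 118 CPM) and Kcnc4 (46.3 and 93.5 CPM) were 1.96- and 2.02-fold higher, and the ATP-sensitive channel subunit Kcnj11 stood at 113 and 180 CPM. Kcna5 and Kcnf1 were 1.80- and 2.55-fold lower.

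Transcripts of the cytosolic ribosome were lower together. Of 85 genes 42 were at least 1.5-fold lower (49.4%, against 9.54% of all genes) and none higher, and 83 had a log2 change below 0. Their median length was 733 bp, and of all measured transcripts of 501 to 1000 bp 22.3% were lower. Under library totals 61 of the 85 were lower, where all genes had 13.3%. The ribosomal list had a median of -0.58 and a summed level of 18711 CPM (lean) and 12994 CPM (ob/ob) in GRf/f muscle. The GR-mKO pair had 40 of 85 lower, against 13.2% of all genes, and none higher, with the same median of -0.58. Rps29 stood at 229 and 118 CPM, 1.94-fold lower (1.85 to 2.04), the stalk protein Rplp1 at 644 and 400 CPM, and Rpl3 at 166 and 107 CPM. Rpl3l, the muscle-specific copy of Rpl3, stood at 446 and 408 CPM. Many ribosomal protein genes have processed copies in the genome, so that single values are uncertain. Genes that build ribosomes were level, with none of 38 lower, 1 higher and a median of -0.03, and cytosolic tRNA synthetases had none of 20 past 1.5-fold.

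Nuclear genes of oxidative phosphorylation had list medians below 0, and few of them passed 1.5-fold. Medians were -0.29 for 36 complex I subunits, -0.28 for 9 complex III subunits, -0.46 for 15 complex IV subunits and -0.23 for 16 ATP synthase subunits, and none of these genes was 1.5-fold higher. Past 1.5-fold lower were 2 of 36 genes of complex I, none of 9 of complex III, 4 of 15 of complex IV and 3 of 16 of ATP synthase, against 9.54% of all genes. Those of complex IV included Cox8b at 397 CPM (lean) and 220 CPM (ob/ob) in GRf/f muscle, Cox7a2 at 170 and 98.7 CPM and Cox7a1 at 229 and 143 CPM. The 13 proteins encoded by mitochondrial DNA went the other way by a small margin, with 11 of 13 above 0, none past 1.5-fold and a median of 0.14. Their catalytic subunit mt-Co1 stood at 49056 and 57213 CPM and mt-Cytb at 16671 and 19261 CPM.

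These small genes share a short transcript, and transcript length moved with the change across the whole library. The median log2 change was -0.48 for 83 transcripts of up to 500 bp, -0.34 for 728 of 501 to 1000 bp and -0.14 for 1255 of 1001 to 1500 bp. It was 0.08 for 3832 transcripts of 3001 to 5000 bp and 0.13 for 2561 longer ones. The GR-mKO pair gave -0.49 and 0.13 at the ends. The median length was 733 bp for cytosolic ribosomal genes and 645 bp for complex IV. When the median of its length class was subtracted from each gene, the list medians became -0.26 for the ribosome, -0.16 for complex IV, 0.04 for complex I, 0.09 for complex III, 0.07 for ATP synthase and 0.02 for the mitochondrial ribosome. The median for mitochondrial DNA became 0.37, for slow fibre 1.36, for type IIb fibre 0.19, for the Z disc 0.42, for class II -1.33 and for fibrillar collagens 1.41. The sign for complex I, complex III, ATP synthase, type IIb fibre and the mitochondrial ribosome, which had a median of -0.18 before, thus differs between the 2 scales. The class medians were taken over all measured genes, members of the lists included. The subtraction may therefore take away part of a list's own change. The part of length in the ribosomal and mitochondrial values was not tested beyond this subtraction. The study set a minimum RNA integrity number before sequencing, and the value of each library is not given in the sources used here.

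**Figure D4:**
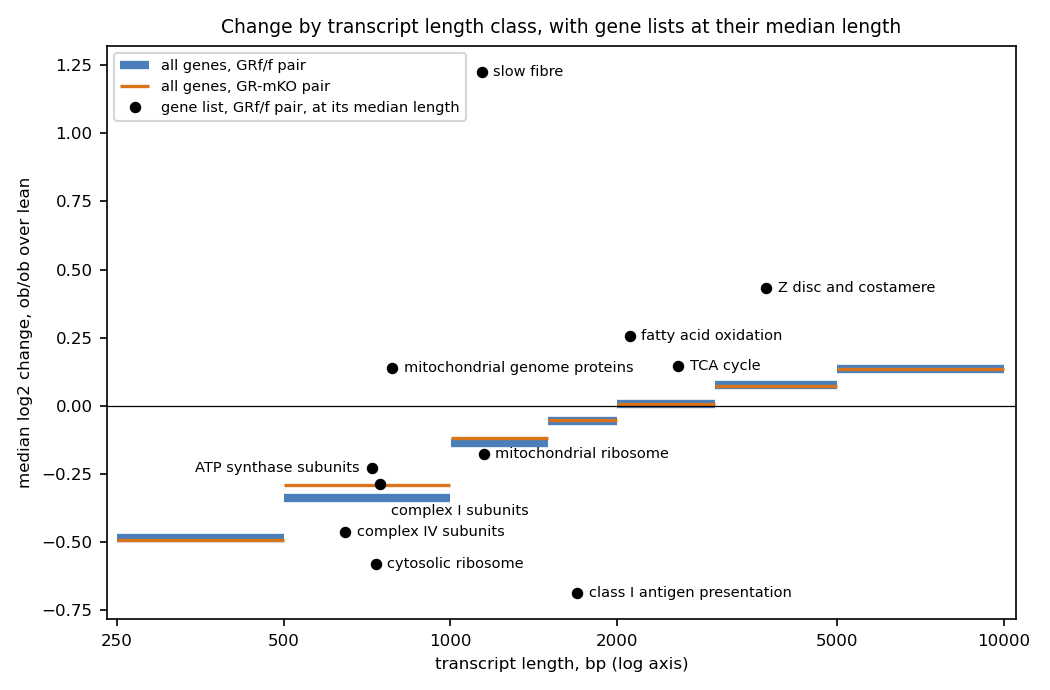
Median log2 change, ob/ob over lean, of all measured genes by transcript length class (log axis, bp) in the GRf/f pair (thick bars) and the GR-mKO pair (thin bars), the outer classes being open-ended, with gene lists as points at their median length and GRf/f median. The class medians run from -0.48 to 0.13 in the GRf/f pair, and the cytosolic ribosome lies below its class at -0.58.

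Upstream of the respiratory chain, most genes of fatty acid oxidation and of the TCA cycle had a log2 change above 0, but none was 1.5-fold higher. Of 26 genes of fatty acid oxidation 22 had a log2 change above 0, none passed 1.5-fold, and the median was 0.26 under TMM and 0.14 under library totals. Acsl1, which activates fatty acids, stood at 253 and 354 CPM, the carnitine carrier Slc25a20 at 62.2 and 85.02 CPM, Acadvl at 239 and 319 CPM and Cpt1b, the gate of mitochondrial entry, at 317 and 380 CPM. The TCA cycle list had 17 of 20 above 0 and a median of 0.15 under TMM and 0.03 under library totals, with Ogdh at 753 and 1028 CPM. Pyruvate carboxylase, Pcx, was its only gene past 1.5-fold and was lower, at 108 and 71.7 CPM. Ppargc1a, the coactivator of mitochondrial genes, stood at 30.4 and 46.1 CPM, 1.52-fold higher (1.37 to 1.68), and was short of 1.5-fold under library totals, with a log2 change of 0.487. Glycolysis had none of 21 genes past 1.5-fold and a median of -0.05. Among glycogen genes 3 of 17 were higher (17.6%, against 8.96% of all genes), such as the branching enzyme Gbe1 at 56.5 and 103 CPM. Under library totals 1 of 17 was higher, near the 6.17% of all genes. The muscle phosphorylase Pygm stood at 9174 and 8886 CPM.

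Lipid storage genes were mixed. Plin5, which tethers lipid droplets to mitochondria, stood at 5.05 CPM (lean) and 16.1 CPM (ob/ob) in GRf/f muscle, 3.18-fold higher (2.55 to 3.98). The droplet coat Plin4 (154 and 249 CPM) and Dgat2, the last step of triglyceride synthesis (99.4 and 161 CPM), were both 1.62-fold higher, Plin4 being short of 1.5-fold under library totals, with a log2 change of 0.58. Elovl6, which lengthens fatty acids, stood at 4.87 and 11.9 CPM and Scd1 at 766 and 1084 CPM, whereas fatty acid synthase, Fasn, stood at 141 and 128 CPM and Acly at 35.5 and 24.1 CPM. Thrsp, a lipogenic gene driven by thyroid hormone and carbohydrate, was 2.12-fold lower, at 52.1 and 24.5 CPM. Ucp3, the muscle uncoupling protein, stood at 134 and 59.4 CPM, 2.25-fold lower (2.11 to 2.41), and at 114 and 103 CPM in the GR-mKO pair.

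Hormone-responsive genes held some of the largest differences. Cish (chr9:107296026-107302784, + strand) and Socs2, feedback inhibitors induced by STAT5 below the growth hormone receptor, stood at 48.6 and 6.46 CPM and at 20.2 and 4.66 CPM. They were 7.52-fold (6.26 to 9.09) and 4.34-fold (3.45 to 5.46) lower in ob/ob GRf/f muscle. Stat5a stood at 12.4 and 6.13 CPM, Stat5b at 158 and 214 CPM, and the leptin receptor Lepr at 5.67 and 6.84 CPM. The GR-mKO libraries held Cish at 7.52 and 4.70 CPM and Socs2 at 11.04 and 6.12 CPM, so that both lean and ob/ob GR-mKO muscle were near the ob/ob GRf/f level for Cish. Over the whole JAK-STAT list 4 of 24 genes were lower (16.7%, against 9.54% of all genes) and 1 higher, the latter being Lep itself.

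Known glucocorticoid targets were lower in 10 of 29 (34.5%, against 9.54% of all genes) and higher in none, with a median of -0.41, in the pair that kept GR. Pdk4, the kinase that shuts pyruvate dehydrogenase, stood at 387 CPM (lean) and 181 CPM (ob/ob) in GRf/f muscle, 2.14-fold lower (2.06 to 2.23), and at 324 and 399 CPM in the GR-mKO pair. Tsc22d3, also called Gilz, stood at 424 and 244 CPM with GR and at 210 and 226 CPM in the GR-mKO pair. Glutamine synthetase, Glul, stood at 630 and 339 CPM and at 278 and 188 CPM, Sgk1 at 307 and 195 CPM and at 201 and 191 CPM, and Cebpd at 88.8 and 32.8 CPM and at 45.7 and 28.2 CPM. For Tsc22d3, Glul, Sgk1 and Cebpd the lean GRf/f library was the highest of the 4. Nfkbia and Cebpb were 1.86- and 1.84-fold lower in the GRf/f pair. In the GR-mKO pair 3 of 29 were higher and 4 lower, near that pair's 10.7% and 13.2% of all genes, with a median of -0.03, and the difference between the pairs was not tested.

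**Figure D5:**
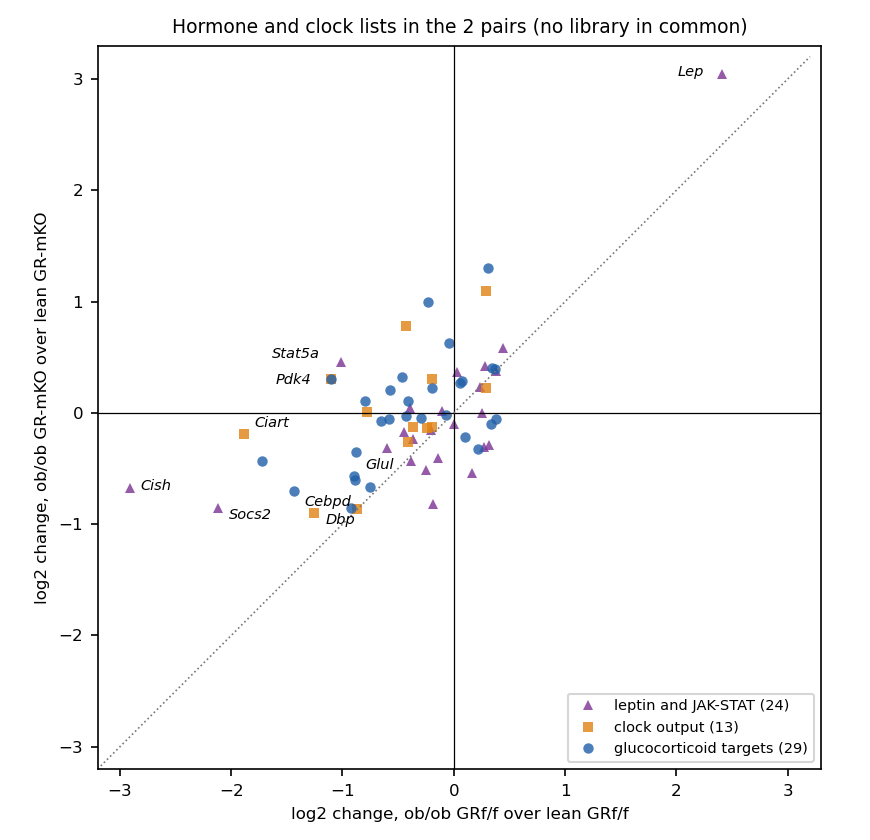
Log2 change in the GRf/f pair (x axis) against the GR-mKO pair (y axis) of glucocorticoid targets, clock output genes and leptin and JAK-STAT genes measured in both, with 1 point a gene and a dotted line at equal change. Cish, Socs2, Pdk4 and Ciart lie at -2.91, -2.12, -1.10 and -1.89 in the GRf/f pair and at -0.68, -0.85, 0.30 and -0.19 in the GR-mKO pair.

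Clock output genes, which carry the daily rhythm into metabolism, were lower in 5 of 13 (38.5%, against 9.54% of all genes) and higher in none. Dbp stood at 169 and 70.8 CPM, 2.382-fold lower (2.24 to 2.53), the repressor Ciart at 13.8 and 3.72 CPM and the mitotic kinase Wee1 at 14.9 and 8.65 CPM. The core clock list had 1 of 19 higher (5.26%) and 2 lower (10.5%), near the shares of all genes, with a median of 0.00. The hour at which muscle was taken is not given in the sources used here. Immediate early genes were split, with 9 of 35 higher (25.7%, against 8.96% of all genes) and 7 lower (20%, against 9.54%). Fos stood at 10.8 and 47.3 CPM, Egr1 at 14.5 and 56.7 CPM and Atf3 at 7.25 and 24.7 CPM, 3.40- to 4.36-fold higher. Gadd45g (106 and 29.1 CPM), Klf2 (101 and 56.6 CPM) and Klf6 (98.5 and 63.01 CPM) were 3.66-, 1.79- and 1.56-fold lower. In lean GR-mKO muscle Fos stood at 45.8 CPM and Egr1 at 56.9 CPM, near the ob/ob GRf/f level.

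Polyamine metabolism held single genes with large differences at high levels. Amd1, the decarboxylase that supplies the aminopropyl group (chr10:40287458-40302186, - strand), stood at 1972 CPM (lean) and 431 CPM (ob/ob) in GRf/f muscle, 4.57-fold lower (4.47 to 4.68). Spermine oxidase, Smox, stood at 327 and 106 CPM, and the acetyltransferase Sat1 at 20.6 and 11.2 CPM. Spermine synthase, Sms, stood at 59.2 and 81.6 CPM and ornithine decarboxylase, Odc1, at 172 and 119 CPM. Lean and ob/ob GR-mKO muscle held Amd1 at 868 and 261 CPM and Smox at 136 and 54.3 CPM, so that the direction was shared by both pairs. Over the list of 16 genes 3 were lower (18.8%, against 9.54% of all genes) and 1 higher (6.25%, against 8.96%), and the median was -0.14.

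Of 30 insulin signalling genes 4 were higher (13.3%) and 3 lower (10%), near the 8.96% and 9.54% of all genes. Tbc1d1, which gates the traffic of glucose transporters, stood at 25.02 and 55.6 CPM, 2.22-fold higher (2.003 to 2.47). Irs2 stood at 59.7 and 38.0 CPM, 1.57-fold lower, and at 45.9 and 44.99 CPM in the GR-mKO pair. The glucose transporter Slc2a4 stood at 750 and 697 CPM and the receptor Insr at 58.6 and 77.5 CPM. Among secreted factors of muscle, myonectin, Erfe, stood at 3.99 and 14.3 CPM, 3.59-fold higher (2.82 to 4.64), and Il15 at 2.71 and 1.34 CPM, while myostatin, Mstn, stood at 86.7 and 89.9 CPM. Mss51, a mitochondrial regulator of muscle metabolism, stood at 61.5 and 206 CPM with GR and at 15.5 and 66.6 CPM in the GR-mKO pair.

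Wnt, FGF, semaphorin and imprinted genes were higher more often than lower, while Notch and BMP genes stood near the shares of all genes. Of all genes, 8.96% were higher and 9.54% lower. Wnt genes were higher in 12 of 40 (30%) and lower in 1 (2.5%), with a median of 0.42. Under library totals 8 of 40 were higher, where all genes had 6.17%. The receptor Fzd10 stood at 1.30 and 4.72 CPM, the ligand Wnt5a at 6.49 and 10.2 CPM and the secreted antagonist Sfrp4 at 9.76 and 18.3 CPM, and the receptor Fzd6 was the lower one, at 6.02 and 2.80 CPM. FGF genes were higher in 9 of 23 and lower in 1. Fgf1 stood at 30.3 and 59.8 CPM and Fgf7, a ligand made by mesenchyme, at 1.91 and 4.73 CPM, and Fgf10 was 2.92-fold lower. Semaphorins, plexins and ephrins, which guide axons and vessels, were higher in 12 of 42 and lower in 3, and higher in 8 of 42 under library totals. Imprinted growth genes were higher in 5 of 15 and lower in 2. Mest stood at 11.98 and 37.9 CPM, Igf2 at 29.4 and 56.6 CPM, Peg3 at 18.2 and 38.6 CPM and Zim1 at 4.25 and 10.1 CPM. The growth inhibitor Cdkn1c was lower, at 45.4 and 28.3 CPM. Of 22 genes of the Notch pathway 1 was higher and 2 lower, with a median of -0.13. Of 24 BMP and Id genes 3 were higher and 2 lower, with a median of 0.05 under TMM and -0.06 under library totals. Of 39 Wnt genes measured in the GR-mKO pair 6 were higher and 7 lower, and 5 of 15 imprinted genes were higher. Of all genes in that pair 10.7% were higher and 13.2% lower.

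Genes made mainly by fat or liver held both higher and lower members. Adipocyte genes were higher in 3 of 17 and lower in 3, 17.6% each way against 8.96% and 9.54% of all genes, with a summed level of 5190 CPM (lean) and 4977 CPM (ob/ob) in GRf/f muscle. Adiponectin, Adipoq, stood at 78.5 and 83.8 CPM and the droplet coat Plin1 at 56.1 and 42.1 CPM. Beside these, Lep, whose ob transcript is still made, stood at 13.6 and 72.5 CPM, 5.32-fold higher (4.68 to 6.04), and resistin, Retn, at 20.2 and 9.73 CPM. Liver genes were measured in 10 of 22, with 2 higher (20%) and 4 lower (40%). Haptoglobin, Hp, stood at 68.0 and 154 CPM, transferrin, Trf, at 111 and 54.1 CPM, and Cyp2e1, the cytochrome of ethanol and ketone oxidation, at 176 and 18.8 CPM, 9.35-fold lower (8.40 to 10.4). Albumin, Alb, stood at 4.46 and 4.82 CPM. The amount of fat in each pool was not measured apart from these markers, and its part was not tested.

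The 15 largest differences in each direction among genes with at least 100 counts in 1 library held further single genes. Lower were Mup22 (16.7 and 1.57 CPM), a major urinary protein with near-identical copies, the caspase Casp12 (17.6 and 1.65 CPM), paraoxonase Pon1 (7.24 and 0.994 CPM) and Cyp2f2 (12.6 and 2.09 CPM), from 10.7-fold to 6.03-fold. Within the same range were Gm45837 (42.3 and 4.12 CPM), 1700001O22Rik (17.6 and 1.79 CPM), Ppp1r18 (14.4 and 1.68 CPM), Ces1f (7.64 and 0.895 CPM), Nfxl1 (5.21 and 0.622 CPM), Prrg1 (7.12 and 0.887 CPM), Pagr1a (13.7 and 2.10 CPM) and Ybx2 (6.68 and 1.06 CPM). The largest ratios upward were those of Tdrd7 (1.54 and 17.1 CPM), Trim39 (0.678 and 7.24 CPM), Cldn15 (0.938 and 9.76 CPM), Jade1 (3.91 and 30.5 CPM) and Zc3h11a (9.17 and 68.2 CPM), from 11.1-fold to 7.44-fold. Next came the GABA receptor subunit Gabrr2 (1.21 and 8.75 CPM), Mgat4a (1.52 and 10.3 CPM), the deubiquitinase Otud7b (9.43 and 63.7 CPM), the natriuretic peptide clearance receptor Npr3 (7.92 and 52.6 CPM), Myo9b (2.61 and 16.6 CPM), the DNA dioxygenase Tet2 (3.04 and 17.9 CPM) and Naa60 (1.71 and 9.80 CPM), from 7.24-fold to 5.74-fold. In 9 of the 15 higher genes the lean GRf/f library was the one apart, with both GR-mKO libraries at least 2-fold above it. Zc3h11a stood at 84.7 and 87.1 CPM in lean and ob/ob GR-mKO muscle, Otud7b at 45.4 and 60.95 CPM and Tet2 at 13.8 and 12.3 CPM. Tdrd7 (16.04 and 5.09 CPM) and Cldn15 (5.23 and 1.07 CPM) went the other way in the GR-mKO pair. Of the 15 lower genes, the ob/ob GRf/f library lay at least 2-fold below both GR-mKO libraries in 7 and the lean GRf/f library at least 2-fold above both in 5, Ybx2 being in both counts.

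Some genes were listed at 0 in 1 library and not in the other. In all, 68 genes had at least 100 counts in 1 GRf/f library and 0 in the other, 40 of them at 0 in ob/ob and 28 in lean muscle. Myh10, a non-muscle myosin, was listed at 0 in lean and at 39.0 CPM in ob/ob GRf/f muscle. Ddx41, Rlim and Slc25a51 were listed at 0 in ob/ob and at 12.6, 23.7 and 46.1 CPM in lean GRf/f muscle. No ratio was taken for such genes.

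Genes were also grouped by the leading letters of their symbol. Of 86 families with at least 15 measured genes, the lowest medians were those of Rps (-0.57, which also takes in the Rps6k kinases), Rpl (-0.56), Clec (-0.54), Cox (-0.46), Olfr (-0.42), Vmn (-0.33), Cyp (-0.29) and Il (-0.26). The highest were Col (0.55), Adamts (0.48), Myo (0.31), Ankrd (0.27), Pcdhb (0.27), Dusp (0.24), Zdhhc (0.23) and Kif (0.21). Of all genes, 9.54% were lower and 8.96% higher. Among the 16 Clec genes, C-type lectins of which many are myeloid receptors, 7 were lower and 1 higher. Among 79 olfactory receptors 25 were lower and 3 higher, and near-identical copies make single receptors uncertain. Lists that stayed near no difference were the lysosome (median 0.01), autophagy (0.06), cholesterol synthesis (0.00) and the proteasome (-0.11). The medians of the lysosome and of autophagy changed sign under library totals.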

How the data were processed

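Gastrocnemius RNA of 3 mice was pooled for each of 4 libraries. The authors deposited expected counts per gene name, estimated from filtered paired-end reads with Salmon 1.2.1 on GENCODE protein-coding transcripts (mm10) and imported with tximport as length-scaled TPM in R 3.5.0 (versions from the submitters' processing notes and the study's methods). Each name holds 1 entry with 1 transcript, the one with the largest total, and other entries of a name are not in the values.

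Counts were scaled with TMM (edgeR 4.0.16, R 4.3.3), and as CPM by library totals. Genes needed at least 10 counts in both libraries. Ratios carry exact Clopper-Pearson intervals on rounded counts (scipy 1.17.1, Python 3.11.15). With 1 library a group no test was run. Positions and lengths came from GENCODE M21 on GRCm38. Named genes are members of described lists past 1.5-fold with at least 50 counts in 1 library, members that show how a list varies, and the 15 largest differences each way at 100 counts or more. Genes and lists were chosen with earlier results of these data known. The patterns for the ribosome and chemokine lists were corrected, after values had been seen, to remove kinases, a binding protein and receptors and to add the Ccl genes. Alternatives were other scalings (DESeq2 1.42.0 size factors, upper quartile), count minimums, a prior count and a 2-fold threshold. Scripts were tested on simulated data. Some genes are not reported here.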

Additional observations from a re-analysis of the deposited data

Results flagged for a closer look

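Some results had opposite directions in the GRf/f and GR-mKO pairs. These differences were not tested, since each group is 1 library. Irf9 had a log2 change of 1.39 in the GRf/f pair and -0.89 in the GR-mKO pair. Sfrp4, a secreted Wnt antagonist, had 0.90 and -0.75, the guidance ligand Sema6a 1.56 and -1.21, and the GABA receptor subunit Gabrr2 2.86 and -0.66. Cidea, a lipid droplet protein of adipocytes, had -1.97 and 1.68. Among the largest differences, Gm45837 had -3.36 and 0.73, Tdrd7 3.48 and -1.66, and Cldn15 3.38 and -2.29.

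Among list medians, collagen processing had 0.25 in the GRf/f pair and -0.31 in the GR-mKO pair, matrix glycoproteins and proteoglycans 0.45 and -0.16, and the basement membrane 0.29 and -0.15. The liver list had -0.40 over 10 measured genes and 0.38 over 14, so that the members differ, and the GRf/f median was 0.11 over the 3 genes with 1 coding transcript.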

How the results depend on the processing

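No paired analysis was possible because each group is 1 library. For the same reason no library could be left out. The counts of 1151 higher and 1225 lower genes became 764 and 741 with at least 50 counts in both libraries, and 363 and 373 at 2-fold. Keeping genes above 0 counts in both gave 1723 and 2136. Genes with 1 coding transcript alone, an alternative chosen after seeing the data that tests fewer genes, gave 246 and 275. Of 64 list medians, 8 changed sign under 1 or more of the 9 other scalings, minimums and prior counts (core clock, glycogen, insulin signalling, lysosome, autophagy, cholesterol synthesis, tRNA synthetases, and BMP and Id), and 21 did when the single-transcript and length alternatives, both added after seeing the data, were included. Of 234 named genes, scaling by library totals changed the sign of 4 and took 8 out of the 1.5-fold call (Col5a1, Col3a1, Cryab, Hspb6, Kcnj11, Ppargc1a, Plin4 and Wnt5a). It raised the lower genes of complex I to 6 of 36 and of complex IV to 7 of 15. Subtracting the median of the length class changed the sign of 5 named genes and took 15 out of the call. A level of 3 counts equals 0.139 CPM in the lean and 0.149 CPM in the ob/ob GRf/f library.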
